A study of Mus musculus with 6 samples.

Results

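Interferon-stimulated gene families were examined in the transcriptome of isolated mouse Sertoli cells, the somatic cells that nurse germ cells in the seminiferous tubule. Members were picked by gene name and biotype, with no threshold on a measured value, although the families themselves were chosen with earlier results of these data known. Among them were protein-coding genes of the *Oas*, *Oasl*, *Ifit*, *Ifitm*, *Ifi*, *Gbp*, *Irgm*, *Irf*, *Mx* and *Isg* families, and *Parp9*, *Parp14*, *Stat2*, *Rsad2*, *Usp18*, *Rtp4*, *Zbp1*, *Ddx58* and *Ifih1*. The members were 73 of the 28262 genes listed. The libraries were made from Sertoli cells of 20-day-old mice on a C57BL/6 background, 3 from *Pa1F/F* mice and 3 from *Amh-pa1-/-* mice. *Pa1F/F* cells carry floxed, undeleted *Pa1* alleles and served as the control. In *Amh-pa1-/-* cells the same floxed alleles are deleted by a Cre recombinase that the *Amh* promoter drives, a promoter active in Sertoli cells, and neither group received a treatment. The cells were kept in culture and washed to remove unattached germ cells before RNA was taken. *Pa1* encodes a subunit of the MLL3/4 histone methyltransferase complex, and the question of the comparison is which transcripts depend on it. The reads of *Pa1* were not analysed here, and libraries are named by the genotype on their labels. The study's methods call the replicates biological and state in general that experiments were independently repeated 3 or more times. The sources used here do not say whether the libraries of a genotype came from separate mice or cultures. The p-values thus measure the spread between these libraries, which may be technical.

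Interferons are secreted proteins that cells release when sensors meet viral RNA or DNA. Type I and III interferons signal through JAK1 and TYK2 to a complex that holds STAT2 and IRF9 and binds the interferon-stimulated response element (ISRE), whereas interferon gamma acts through the gamma-activated site (GAS). The induced genes bind viral RNA, block viral entry, modify proteins with ISG15 or attack vacuoles with large GTPases, and several of them encode the sensors and transcription factors of the pathway itself. In the testis, Sertoli cells are known to mount this response to viruses that reach the tubule.

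Total counts on genes ranged from 14051353 to 16231443 in *Pa1F/F* and from 13203757 to 15247587 in *Amh-pa1-/-* libraries. Values are given as normalized counts, that is, counts brought to a common depth with the effective library sizes of edgeR's TMM method. They are not divided by gene length, so levels are compared between libraries and not between genes. A count of 3, the upper limit that a count of 0 allows, stood at between 2.72 and 3.38 normalized counts. The Sertoli cell markers *Sox9*, *Wt1*, *Dhh* and *Clu* were detected in all 6 libraries. *Pa1F/F* replicates 1 and 3 were close to each other, at a chi-square over genes of 2.23 per degree of freedom, and so were *Amh-pa1-/-* replicates 1 and 2, at 1.67. All other pairs within a genotype stood between 18.4 and 30.1. *Pa1F/F* replicate 2 and *Amh-pa1-/-* replicate 3 thus stood apart from the others of their genotype, and results are given with and without them.

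Of the 73 members, 54 passed the filter on low counts and were tested between the genotypes. *Pa1F/F* replicate 2 stood apart from every other library in these families. It was the highest of the 6 libraries for 48 of the 54 tested members, as compared with 19.8% of all tested genes. In 43 of them it was at least 2-fold above the mean of *Pa1F/F* replicates 1 and 3, as compared with 2.54% of all tested genes, and in 36 it was at least 5-fold above it, as compared with 0.670%. No member was 2-fold below that mean, as compared with 1.70% of all genes. The median fold was 7.63 over the tested members and 1.0 over all tested genes. Between *Pa1F/F* replicates 1 and 3 1 tested member, *Rsad2*, was at least 2-fold higher in replicate 1, as compared with 1.05% of all genes, and 1, *Ifi27l2a*, was at least 2-fold lower, as compared with 1.06%. *Mx1*, which was not tested, was 3.33-fold higher in replicate 1.

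*Amh-pa1-/-* replicate 3 was at least 2-fold above the mean of *Amh-pa1-/-* replicates 1 and 2 for 27 of 54 tested members, as compared with 4.46% of all tested genes, where a mean under 3 normalized counts was set to 3. It was at least 5-fold above it for 10 members, as compared with 0.395%, and 2-fold below it for none, as compared with 4.60%. The median fold was 1.98 over the members and 1.0 over all genes. Over the 54 members, the fold of *Pa1F/F* replicate 2 and the fold of *Amh-pa1-/-* replicate 3 had a Spearman rho of 0.81 (Pearson r = 0.73 on the log2 scale). This correlation is across genes, which are not independent replicates, and the folds share no library. Summed over the 73 members as CPM (counts scaled to the same library size), *Pa1F/F* replicates 1, 2 and 3 held 997, 5824 and 1041. *Amh-pa1-/-* replicates 1, 2 and 3 held 787, 772 and 1051.

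**Figure D1:**
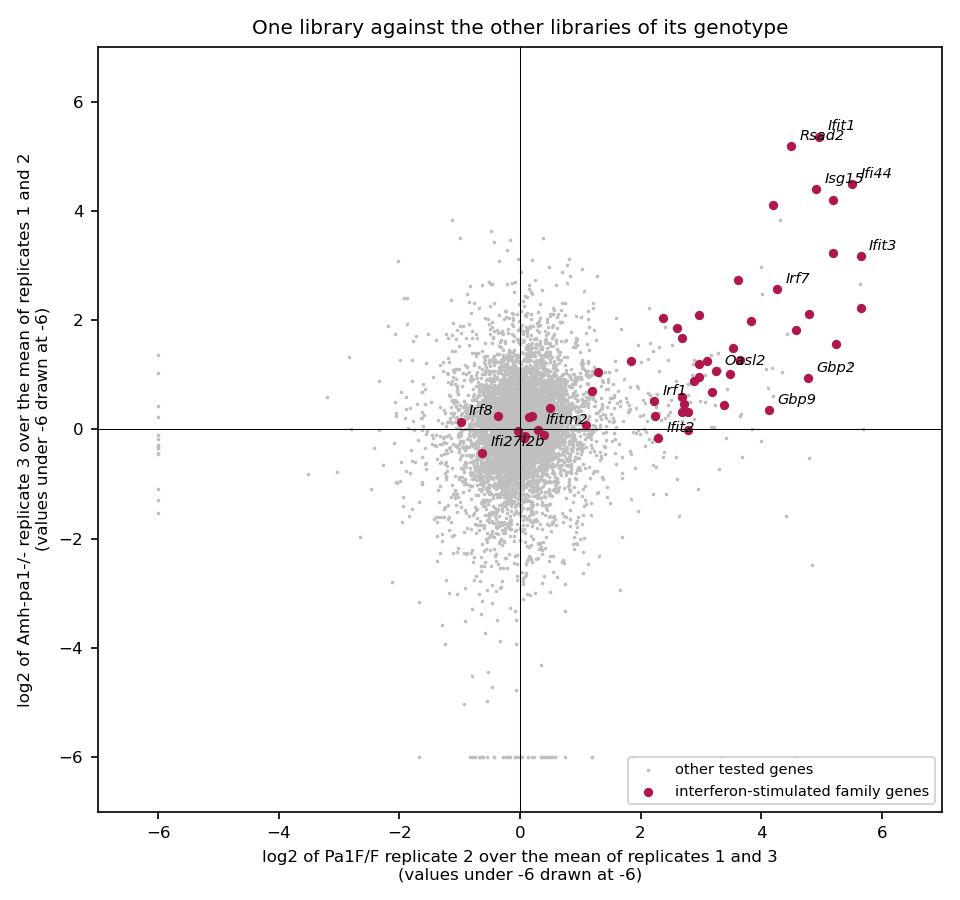
Log2 of the fold of *Pa1F/F* replicate 2 over the mean of *Pa1F/F* replicates 1 and 3 (x axis) against log2 of the fold of *Amh-pa1-/-* replicate 3 over the mean of *Amh-pa1-/-* replicates 1 and 2 (y axis), with 1 point per tested gene, members in red and other genes in grey, and values under -6 drawn at -6. The grey points centre on 0 on both axes, whereas 43 of 54 members lie past 2-fold on the x axis and 27 of 54 on the y axis.

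Between the genotypes, 6 of the 54 tested members were called different. A call needed an adjusted p-value under 0.05 and a change of at least 1 on the log2 scale in either direction (edgeR's quasi-likelihood test, Benjamini-Hochberg over 14919 genes). The share called among all tested genes was 12.0%. *Ifi203*, *Ifi207*, *Oasl2*, *Irf8* and *Ifitm2* fell in *Amh-pa1-/-* cells, where 6.56% of all genes were called lower, and *Ifi27l2b* rose, where 5.44% of all genes were called higher. *Ifi27l2b* passed the filter through *Amh-pa1-/-* libraries alone, so its place in the test rested on being higher there. The median log2 fold change of the tested members was -2.13, as compared with 0.00 over all tested genes, and 50 of 54 were below 0. By the adjusted p-value alone 9 members passed, as compared with 35.3% of all tested genes. Every *Amh-pa1-/-* library was below every *Pa1F/F* library in 16 members, as compared with 26.1% of all genes. Every *Amh-pa1-/-* library was above every *Pa1F/F* library in 2 members, as compared with 26.3%.

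Leaving out *Pa1F/F* replicate 2 moved the median log2 fold change of the members to -0.42, with 39 of 54 below 0. In that fit 8 of 54 members were called, as compared with 11.1% of all tested genes. *Ifi203*, *Ifi207*, *Oasl2* and *Irf8* were lower, as compared with 5.84% of all genes, and *Ifi27l2b*, *Gbp9*, *Irf1* and *Irf5* were higher, as compared with 5.29%. Leaving out *Amh-pa1-/-* replicate 3 instead gave a median of -2.51 and 14 lower and 1 higher calls among 55 members, as compared with 7.92% and 5.60% of all genes. The 14 were *Ifi203*, *Ifi207*, *Ifit1*, *Ifitm2*, *Ifitm3*, *Irf7*, *Irf8*, *Irf9*, *Isg15*, *Oas1c*, *Oasl1*, *Oasl2*, *Rsad2* and *Rtp4*. Without both libraries, 25 of 50 members were called, as compared with 14.8% of all genes. Of these, 23 were lower, as compared with 8.48%, and 2 were higher, as compared with 6.27%, and the median log2 fold change was -0.93. The 4 libraries of that fit are close pairs, and with them 55.3% of all genes passed the adjusted p-value alone. *Pa1F/F* replicates 1 and 3 both exceeded *Amh-pa1-/-* replicates 1 and 2 in 39 of the 54 members, as compared with 38.0% of all genes. They both lay below them in 8 members, as compared with 38.7%.

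**Figure D2:**
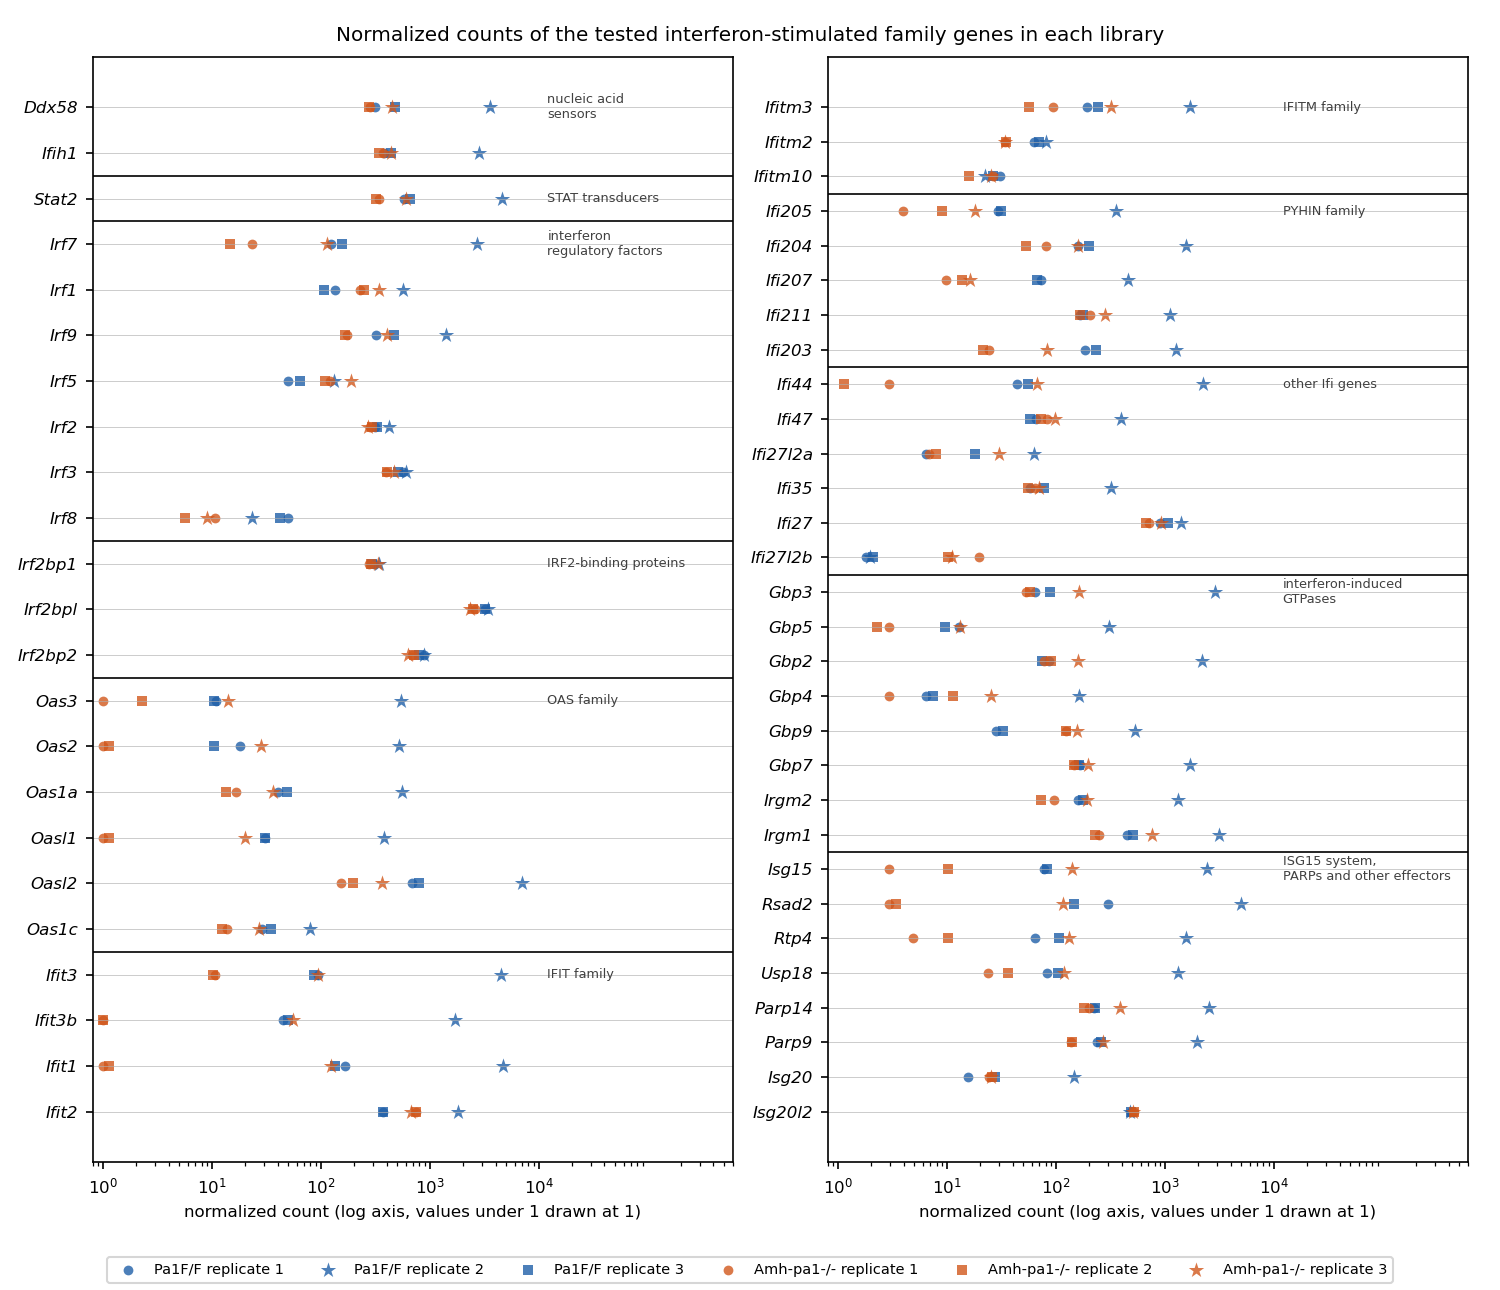
Normalized counts (x axis, log scale, values under 1 drawn at 1) of 53 tested members (y axis), grouped by role, with 1 marker for each of the 6 libraries, *Pa1F/F* in blue and *Amh-pa1-/-* in orange. *Pa1F/F* replicate 2 (blue stars) is the highest library for 47 of these 53.

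Promoter sequence was not used to pick the members, and the ISRE letters stood in some of their promoters and not in others. RefSeq windows of the 250 bases before a gene's start (GRCm38.p6) were matched by name for 55 of the 73 members. The letters GAAANNGAAA of the ISRE core, searched on both strands, stood in 26 of the 55 (47.3%), as compared with 3.46% of 27025 genes with a window. The letters TTCNNNGAA of the GAS stood in 11 of the 55 (20%), as compared with 8.13%. Among tested members with a window, 18 of the 27 that were at least 5-fold higher in *Pa1F/F* replicate 2 held the ISRE letters, and so did 2 of the 9 that were under 2-fold. The GAS letters stood in 5 of those 27 (18.5%) and in 3 of those 9 (33.3%). The tested members under 2-fold, with or without a window, take in *Irf2bp1*, *Irf2bp2*, *Irf2bpl* and *Isg20l2*. These share a name stem with the families but encode other proteins, so the 2 sets differ in more than their fold. A match is a description of the window and not a bound site. The windows below are shown for 3 members with a wide range between libraries (*Isg15*, *Ifit1* and *Rsad2*), for a called member with no such range (*Ifitm2*), and for 2 regulatory factors that held GAS letters (*Irf1* and *Irf8*). Capitals mark every match, and each sequence runs 5′ to 3′ toward the gene.
Isg15: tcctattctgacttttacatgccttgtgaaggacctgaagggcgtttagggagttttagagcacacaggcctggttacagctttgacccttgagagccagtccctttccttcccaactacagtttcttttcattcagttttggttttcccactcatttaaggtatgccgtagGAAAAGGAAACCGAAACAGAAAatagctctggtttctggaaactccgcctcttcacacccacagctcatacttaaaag
Ifit1: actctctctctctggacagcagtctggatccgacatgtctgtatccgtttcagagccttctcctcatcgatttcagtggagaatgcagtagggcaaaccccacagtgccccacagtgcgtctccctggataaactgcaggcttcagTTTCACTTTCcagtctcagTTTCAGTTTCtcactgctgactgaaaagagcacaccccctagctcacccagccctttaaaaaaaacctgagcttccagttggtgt
Rsad2: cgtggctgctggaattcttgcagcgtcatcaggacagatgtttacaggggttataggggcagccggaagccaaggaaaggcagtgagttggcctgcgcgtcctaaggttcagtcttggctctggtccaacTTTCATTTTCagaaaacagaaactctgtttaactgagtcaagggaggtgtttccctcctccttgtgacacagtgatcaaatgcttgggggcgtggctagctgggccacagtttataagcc
Ifitm2: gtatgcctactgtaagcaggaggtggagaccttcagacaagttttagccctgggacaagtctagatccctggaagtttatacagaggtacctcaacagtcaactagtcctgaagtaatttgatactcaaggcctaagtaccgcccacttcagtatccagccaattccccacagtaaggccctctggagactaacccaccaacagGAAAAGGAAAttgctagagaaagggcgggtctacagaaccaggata
Irf1: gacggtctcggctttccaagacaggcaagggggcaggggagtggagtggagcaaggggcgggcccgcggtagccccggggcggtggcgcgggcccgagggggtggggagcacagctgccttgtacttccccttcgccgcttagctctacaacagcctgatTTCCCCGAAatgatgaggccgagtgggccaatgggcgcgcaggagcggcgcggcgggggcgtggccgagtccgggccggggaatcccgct
Irf8: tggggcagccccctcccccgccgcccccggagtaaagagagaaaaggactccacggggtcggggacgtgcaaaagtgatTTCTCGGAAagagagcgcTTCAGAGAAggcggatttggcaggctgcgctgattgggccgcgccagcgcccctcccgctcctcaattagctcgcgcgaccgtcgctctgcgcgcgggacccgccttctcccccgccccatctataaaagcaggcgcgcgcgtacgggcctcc

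The *Isg15* window is chr4:156200819-156201068 on the minus strand, and its 3 ISRE matches overlap in 1 stretch that begins 78 bases before the start. The *Ifit1* window (chr19:34640639-34640888, plus strand) holds matches that begin 104 and 85 bases before the start, both read on the other strand. For *Rsad2* (chr12:26456453-26456702, minus strand) the match begins 120 bases before the start. *Ifitm2* (chr7:140955962-140956211, minus strand) has its match 46 bases before the start, the nearest of these. *Irf1* (chr11:53769764-53770013, plus strand) has 1 GAS match, 90 bases before the start, and *Irf8* (chr8:120736108-120736357, plus strand) has 2, at 171 and 153 bases. The other window of *Irf1* and of *Irf8* is not shown.

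Cytosolic RNA sensors set off the response, and their genes are themselves induced. *Ddx58* encodes RIG-I, which binds viral RNA ends. It had 313, 3585 and 473 normalized counts in *Pa1F/F* replicates 1, 2 and 3, against 283, 275 and 449.9 in those of *Amh-pa1-/-* cells. *Ifih1*, which encodes the long double-stranded RNA sensor MDA5, had 379, 2823 and 437 against 367, 341 and 441. In both genes the genotypes overlapped and *Pa1F/F* replicate 2 was the highest library, 9.13-fold and 6.92-fold over the other controls. Their log2 fold changes were -2.12 (standard error 0.91) and -1.66 (0.77), and neither passed (edgeR, adjusted p = 0.115 and 0.138). *Zbp1*, a sensor of Z-form nucleic acids, had 7, 178 and 6 counts in *Pa1F/F* and 0, 0 and 2 in *Amh-pa1-/-* libraries, and it was not tested.

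*Stat2*, which pairs with IRF9 downstream of type I interferon, had 579.9, 4614 and 662 normalized counts in *Pa1F/F* and 342, 317 and 605 in *Amh-pa1-/-* replicates 1, 2 and 3. *Pa1F/F* replicate 2 was high, *Amh-pa1-/-* replicate 3 reached the range of the other controls, and the difference did not pass (log2 fold change -2.21, standard error 0.84, edgeR, adjusted p = 0.083). Without *Pa1F/F* replicate 2 its log2 fold change was -0.56 (edgeR, adjusted p = 0.197). Without *Amh-pa1-/-* replicate 3 it was -2.57 (edgeR, adjusted p = 0.0727), and without both libraries, on close pairs alone, -0.91 (adjusted p = 2.85e-09).

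Of the interferon regulatory factors, the transcription factors of the pathway, 7 were tested. *Irf8* (chromosome 8, from 120736358 to 120756694), best known for directing myeloid cell development, fell. It had 49.8, 23.2 and 42 normalized counts in *Pa1F/F* and 10.7, 5.63 and 9.02 in *Amh-pa1-/-* libraries. *Irf8* reached the minimum of the low-count filter in 3 *Pa1F/F* libraries and 1 *Amh-pa1-/-* library. The genotypes did not overlap, and *Pa1F/F* replicate 2 was the lowest control (log2 fold change -2.15, standard error 0.39, edgeR, adjusted p = 0.00677). Without that library the log2 fold change was -2.41 (edgeR, adjusted p = 0.00505), and with the close pairs summed the call was lost (adjusted p = 0.0705). Macrophage markers moved with it. Of 13 tested markers 11 were called lower, as compared with 6.56% of all tested genes. But 6 of the 11, among them *Adgre1*, passed the filter on low counts through *Pa1F/F* libraries alone. Their place in the test thus rested on being higher there. Of all genes tested in that way, 187 of 219 were called. The other 5 were *Csf1r*, *Cd68*, *Lyz2*, *Cd14* and *Fcgr3*, of which *Csf1r* and *Fcgr3* reached the filter's minimum in 3 *Pa1F/F* and 2 *Amh-pa1-/-* libraries. The summed level of all 18 ranged from 138 to 149 CPM in *Pa1F/F* and from 79.0 to 95.8 in *Amh-pa1-/-* libraries. *Mrc1* alone, which was not called (log2 fold change 0.17, edgeR, adjusted p = 0.254), made up between 63.4 and 82.7 CPM of each sum. Without it, a choice made after the values were seen, the other 17 summed to between 69.0 and 82.0 CPM in *Pa1F/F* and between 13.01 and 15.6 in *Amh-pa1-/-* libraries. Their part in the difference of *Irf8* was not tested. In bulk RNA, fewer cells of a type and less RNA per cell cannot be told apart.

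*Irf7*, which drives the later wave of type I interferon, had 124, 2702 and 156 normalized counts in *Pa1F/F* and 23.4, 14.6 and 113 in *Amh-pa1-/-* replicates 1, 2 and 3. The genotypes did not overlap, but *Amh-pa1-/-* replicate 3 came within reach of *Pa1F/F* replicate 1, and the difference did not pass (log2 fold change -4.28, standard error 1.45, edgeR, adjusted p = 0.0583). Without *Pa1F/F* replicate 2 it was -1.46 (edgeR, adjusted p = 0.206). Without *Amh-pa1-/-* replicate 3 it was -5.68 (adjusted p = 0.0415), and without both, on close pairs alone, -2.85 (adjusted p = 3.67e-10). *Irf9*, the DNA-binding partner of STAT2, had 322, 1417 and 466 against 175, 164 and 402, with *Amh-pa1-/-* replicate 3 between the controls (log2 fold change -1.57, edgeR, adjusted p = 0.0916). In the same 3 fits *Irf9* was at -0.67, -2.11 and -1.20 (edgeR, adjusted p = 0.281, 0.0342 and 8.71e-08). *Irf1*, induced early in the response through its GAS, had 133, 561 and 106 normalized counts in *Pa1F/F* and 227, 247 and 339.7 in *Amh-pa1-/-* libraries. All *Amh-pa1-/-* libraries of *Irf1* lay above *Pa1F/F* replicates 1 and 3 and below replicate 2. With all libraries its log2 fold change was 0.025 (edgeR, adjusted p = 0.979), and without *Pa1F/F* replicate 2 it rose, by 1.18 (standard error 0.22, adjusted p = 0.0136). Without *Amh-pa1-/-* replicate 3 as well it was at 0.97 (edgeR, adjusted p = 1.98e-06), short of the fold threshold. *Irf5*, which acts downstream of Toll-like receptors, was arranged the same way except in *Amh-pa1-/-* replicate 3, with 49.8, 131 and 64 against 120.1, 109 and 187. Its log2 fold change was 0.77 (edgeR, adjusted p = 0.169) and, without *Pa1F/F* replicate 2, 1.29 (standard error 0.30, adjusted p = 0.025).

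The remaining factors varied less between libraries. *Irf3*, the factor that the RNA sensors activate, had 569, 599 and 511 normalized counts in *Pa1F/F* and 396, 406 and 471 in *Amh-pa1-/-* libraries. It passed the adjusted p-value but not the fold threshold (log2 fold change -0.40, standard error 0.10, edgeR, adjusted p = 0.023). *Irf2*, a competitor of IRF1 for its sites, ranged from 316 to 423 in *Pa1F/F* and from 268 to 294 in *Amh-pa1-/-* libraries (edgeR, adjusted p = 0.0869). *Irf4* had at most 3 counts in a library. *Irf7* and *Irf9* spread from 14.6 to 2702 and from 164 to 1417 over the 6 libraries, whereas *Irf3* spread from 396 to 599. *Irf3*, *Irf5* and *Irf7* each overlap a gene on the other strand (*Bcl2l12*, *Tnpo3* and *Phrf1*), and *Irf9* overlaps *Rnf31* on its own strand, so some of their reads are uncertain.

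The OAS family binds double-stranded RNA, and its active members make 2′-5′ oligoadenylates that switch on RNase L. All 6 tested members had a log2 fold change below 0. *Oasl2* (chromosome 5, from 114896936 to 114912234), an OAS-like gene, was the one that fell. It had 684, 7022 and 797 normalized counts in *Pa1F/F* and 152, 195 and 364 in *Amh-pa1-/-* libraries, with no overlap, and *Pa1F/F* replicate 2 and *Amh-pa1-/-* replicate 3 were the highest of their genotypes. The log2 fold change was -3.58 (standard error 1.01, edgeR, adjusted p = 0.0327), and -1.64 without *Pa1F/F* replicate 2 (adjusted p = 0.0186). The call was lost without *Amh-pa1-/-* replicate 1 (edgeR, adjusted p = 0.103), without replicate 2 (0.100), with limma-voom (0.113), with the replicate number as a block (0.075) and with the close pairs summed (0.111), and DESeq2 gave *Oasl2* no p-value.

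*Oas3*, a large synthetase, had 12, 555 and 10 counts in *Pa1F/F* and 0, 2 and 14 in *Amh-pa1-/-* libraries. *Oas2* had 20, 542 and 10 against 0, 1 and 28. *Oasl1* had 34, 388 and 29 against 1, 1 and 20. For *Oasl1* the genotypes did not overlap (log2 fold change -4.26, standard error 1.41, edgeR, adjusted p = 0.0551), and for *Oas2* and *Oas3* *Amh-pa1-/-* replicate 3 reached the controls. *Oas1a* and *Oas1c* ranged from 12.4 to 553 normalized counts over the libraries, with no overlap between genotypes, and did not pass in edgeR. DESeq2 called *Oas1c* (adjusted p = 0.0307). *Oas1g*, a near copy of *Oas1a* whose reads may be split, had 7, 173 and 5 counts against 1, 2 and 6 and was not tested, and *Oas1h* had at most 2 counts.

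IFIT proteins bind RNA whose 5′ end lacks the marks of host transcripts and block its translation. *Ifit1* had 182, 4804 and 127 counts in *Pa1F/F* replicates 1, 2 and 3. In *Amh-pa1-/-* replicates 1, 2 and 3 it had 1, 1 and 123 counts. *Ifit1* was thus near the floor in a pair of libraries, just below the lower controls in *Amh-pa1-/-* replicate 3, and 31.2-fold above the other controls as normalized counts in *Pa1F/F* replicate 2. The log2 fold change was -5.28 with a standard error of 1.88 (edgeR, adjusted p = 0.0687) and -1.82 without *Pa1F/F* replicate 2 (adjusted p = 0.354). *Ifit3* had 93.3, 4527 and 87.1 against 10.7, 10.1 and 94.2 normalized counts, and its *Amh-pa1-/-* replicate 3 was above *Pa1F/F* replicates 1 and 3 (log2 fold change -5.33, edgeR, adjusted p = 0.0651). *Ifit3b*, a near-identical neighbour that may share reads with it, followed the same order, with 0, 0 and 55 counts in *Amh-pa1-/-* libraries.

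*Ifit2* departed from its family. It had 372, 1827 and 373 normalized counts in *Pa1F/F* and 749, 742 and 669 in *Amh-pa1-/-* replicates 1, 2 and 3. The *Amh-pa1-/-* libraries of *Ifit2* were all above *Pa1F/F* replicates 1 and 3 and below replicate 2, and replicate 3 was not raised over its own genotype. Its log2 fold change was -0.25 (standard error 0.61, edgeR, adjusted p = 0.777) with all libraries and 0.95 (standard error 0.086, adjusted p = 0.00155) without *Pa1F/F* replicate 2, just short of the fold threshold. *Ifit1*, *Ifit2*, *Ifit3* and *Ifit3b* lie within the same stretch of chromosome 19, between 34550694 and 34650009. *Ifit1bl1* and *Ifit1bl2* were not tested, and *Ifit1bl2* had 65 counts in *Pa1F/F* replicate 2 against at most 7 elsewhere.

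IFITM proteins sit in cell and endosome membranes and hinder the fusion of viruses. *Ifitm2* (chromosome 7, from 140954837 to 140955987) fell with little spread. It had 62.5, 81.3 and 70.3 normalized counts in *Pa1F/F* and 34.2, 34.9 and 34.1 in *Amh-pa1-/-* libraries. The groups did not overlap, and the log2 fold change was -1.05 (standard error 0.18, edgeR, adjusted p = 0.00514). Without *Pa1F/F* replicate 2 it was -0.95 (adjusted p = 0.0182), which kept the adjusted p-value and missed the fold threshold. The call was also lost with the close pairs summed (adjusted p = 0.0692). Its neighbour *Ifitm3*, the main antiviral member, had 190.3, 1699 and 243 against 93.7, 56.3 and 321, with *Pa1F/F* replicate 2 and *Amh-pa1-/-* replicate 3 high in their genotypes and no call (log2 fold change -2.17, edgeR, adjusted p = 0.138). *Ifitm10* ranged from 15.8 to 30.8 over all libraries, and *Ifitm1*, *Ifitm5* and *Ifitm7* had at most 6 counts.

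The PYHIN family, which the names *Ifi202b* to *Ifi211* cover, holds nuclear and cytosolic DNA-binding proteins encoded side by side on chromosome 1. *Ifi203* (from 173920407 to 173942672) had 183, 1256 and 232 normalized counts in *Pa1F/F* and 24.4, 21.4 and 83.2 in *Amh-pa1-/-* libraries. *Ifi207* (from 173723427 to 173741747) had 72.5, 459.9 and 67.1 against 9.76, 13.5 and 16, and it reached the minimum of the low-count filter in 3 *Pa1F/F* and 2 *Amh-pa1-/-* libraries. Both genes showed no overlap between genotypes, and for *Ifi207* the 3 *Amh-pa1-/-* libraries were close together. Their log2 fold changes were -3.68 (standard error 0.94) and -3.92 (0.92), and both fell (edgeR, adjusted p = 0.0227 and 0.0166). Without *Pa1F/F* replicate 2 they were -2.26 and -2.41 (adjusted p = 0.0293 and 0.00299). Both calls were lost without *Amh-pa1-/-* replicate 1 (edgeR, adjusted p = 0.0787 and 0.0632), without replicate 2 (0.0762 and 0.0569), with limma-voom (0.103 and 0.0972) and with the close pairs summed (0.103 and 0.0767). That of *Ifi203* was also lost with the replicate number as a block (0.053).

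The other PYHIN genes did not pass. *Ifi204* had 158.6, 1553 and 201 normalized counts in *Pa1F/F* and 81, 52.9 and 159.3 in *Amh-pa1-/-* replicates 1, 2 and 3, so that replicate 3 lay just above the lowest control (edgeR, adjusted p = 0.0691). *Ifi205* had 29, 351 and 31.5 against 3.9, 9.01 and 18, and its genotypes did not overlap (edgeR, adjusted p = 0.0505). *Ifi211* had 164, 1098 and 175 against 205, 166 and 279, so that its genotypes overlapped. Its log2 fold change went from -1.14 with all libraries to 0.35 without *Pa1F/F* replicate 2 (edgeR, adjusted p = 0.301). *Ifi203* and *Ifi211* overlap *Mndal* on the same strand, which makes the split of reads among these copies uncertain. *Ifi202b*, *Ifi206*, *Ifi208* and *Ifi209* had at most 9 counts in a library.

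Interferon-induced GTPases assemble on the vacuoles and membranes of intracellular pathogens. The 8 tested members were between 6.47-fold and 37.7-fold higher in *Pa1F/F* replicate 2 than in the other controls, and none passed between genotypes. *Gbp2* had 86.1, 2199 and 73.4 normalized counts in *Pa1F/F* and 78.1, 89 and 159 in *Amh-pa1-/-* libraries. *Gbp3* had 64.3, 2854 and 87.1 against 52.7, 57.5 and 163, and *Gbp7* had 165, 1698 and 160.5 against 144, 144 and 196. Apart from *Pa1F/F* replicate 2, these 3 genes had *Pa1F/F* levels near those of *Amh-pa1-/-* replicates 1 and 2. Without it their log2 fold changes were 0.45, 0.27 and -0.0095, from -2.85, -3.45 and -2.06 with all libraries (edgeR, adjusted p = 0.377, 0.737 and 0.974 without it).

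*Gbp9* was the exception among the GTPases. It had 28.1, 532 and 32.5 normalized counts in *Pa1F/F* and 123, 123 and 156 in *Amh-pa1-/-* replicates 1, 2 and 3, so that every *Amh-pa1-/-* library was above *Pa1F/F* replicates 1 and 3. With all libraries the log2 fold change was -0.56 (standard error 1.04, edgeR, adjusted p = 0.71). Without *Pa1F/F* replicate 2 *Gbp9* rose, by 2.14 (standard error 0.22, adjusted p = 0.00209). *Gbp9* overlaps *Gbp4* and *Gbp8* on the same strand of chromosome 5, and *Gbp4* stood at 3 to 25 counts outside *Pa1F/F* replicate 2. *Irgm1*, which restrains the other IRG GTPases, had 449, 3101 and 509.7 against 246, 228 and 756 normalized counts, with *Amh-pa1-/-* replicate 3 above *Pa1F/F* replicates 1 and 3. *Irgm2*, which overlaps *Igtp*, had 158, 1315 and 176 against 95.7, 72.1 and 193. *Gbp5* had 14, 316 and 9 counts in *Pa1F/F* and 3, 2 and 13 in *Amh-pa1-/-* libraries. *Mx1*, whose C57BL/6 allele encodes no functional protein, had 27, 286 and 7 against 0, 0 and 3 and was not tested, nor were *Gbp6*, *Gbp8* and *Gbp10*.

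ISG15 is a ubiquitin-like protein that is joined to other proteins, and USP18 takes it off and damps the interferon receptor. *Isg15* had 86, 2483 and 78 counts in *Pa1F/F* and 3, 9 and 138 counts in *Amh-pa1-/-* replicates 1, 2 and 3. *Amh-pa1-/-* replicate 3 exceeded *Pa1F/F* replicates 1 and 3, while the other *Amh-pa1-/-* libraries were near the floor (log2 fold change -4.07, standard error 1.72, edgeR, adjusted p = 0.11). *Usp18* had 81.6, 1318 and 104 against 23.4, 36 and 117 normalized counts in the same order (edgeR, adjusted p = 0.0931). *Rsad2*, which encodes viperin and makes a chain-terminating nucleotide, had 328, 5179 and 139 counts in *Pa1F/F* and 3, 3 and 115 in *Amh-pa1-/-* libraries. *Rsad2* did not overlap between genotypes and had the lowest adjusted p-value of this group, which missed the threshold (log2 fold change -5.46, standard error 1.76, edgeR, adjusted p = 0.0502). Without *Pa1F/F* replicate 2 it was at -2.44 (edgeR, adjusted p = 0.178). *Rsad2* was called without *Amh-pa1-/-* replicate 3 (-9.12, adjusted p = 0.0278) and, on close pairs alone, without both libraries (-6.11, adjusted p = 1.37e-11). *Rtp4*, a receptor-transporting protein, had 64.3, 1568 and 107 against 4.88, 10.1 and 130.3, and *Amh-pa1-/-* replicate 3 was above *Pa1F/F* replicates 1 and 3.

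*Parp9* and *Parp14*, ADP-ribosyltransferase family members, ranged from 225 to 258 normalized counts in *Pa1F/F* replicates 1 and 3. In *Pa1F/F* replicate 2 they had 1943 and 2528. Neither passed (edgeR, adjusted p = 0.0965 and 0.167). *Isg20*, an exonuclease for RNA, had 15.4, 147 and 27.3 against 24.4, 25.9 and 25, so that all libraries but *Pa1F/F* replicate 2 lay between 15.4 and 27.3. *Ifi44* had 48, 2311 and 52 counts in *Pa1F/F* and 3, 1 and 67 in *Amh-pa1-/-* libraries (edgeR, adjusted p = 0.083). *Ifi35* and *Ifi47* were 4.70-fold and 6.44-fold higher in *Pa1F/F* replicate 2 and otherwise ranged from 55.2 to 97.2. *Ifi27* ranged from 664 to 1403 over all libraries (log2 fold change -0.56, standard error 0.19, edgeR, adjusted p = 0.0528).

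*Ifi27l2b* (chromosome 12, from 103450898 to 103457223), a relative of *Ifi27*, was the called member that rose. It had 2 counts in each *Pa1F/F* library and 20, 9 and 11 in *Amh-pa1-/-* replicates 1, 2 and 3. The genotypes did not overlap, and neither *Pa1F/F* replicate 2 nor *Amh-pa1-/-* replicate 3 was the highest of its genotype in counts. The reads summed over the genotypes were 40 against 6, a ratio of 7.08 with an exact 95% interval from 2.98 to 20.4 that covers counting error only (edgeR, adjusted p = 0.0053). *Ifi27l2b* passed the filter on low counts through the *Amh-pa1-/-* libraries alone, so its call and its interval are not independent of how it came to be tested. Of all genes tested in that way, 116 of 135 were called. *Ifi27l2b* was not tested without *Amh-pa1-/-* replicate 1, without both libraries that stood apart, or when each library had to hold 10 or more counts. Its neighbour *Ifi27l2a* had 7, 65 and 17 counts against 7, 7 and 30, with *Pa1F/F* replicate 2 high. *Ifi44l* had at most 3 counts.

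Names that share a stem with these families but encode other proteins gave a contrast. *Irf2bp1*, *Irf2bp2* and *Irf2bpl* encode IRF2-binding corepressors, and *Isg20l2* a nuclease of ribosome assembly. The 4 genes were between 0.98-fold and 1.14-fold in *Pa1F/F* replicate 2 over the other controls. *Irf2bp2* and *Irf2bpl* passed the adjusted p-value with log2 fold changes of -0.34 and -0.42, short of the fold threshold (edgeR, adjusted p = 0.0168 and 0.00256). *Isg20l2* stood between 477 and 520 normalized counts in all libraries. None of them was among the 43 members at least 2-fold higher in that library.

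**Figure D3:**
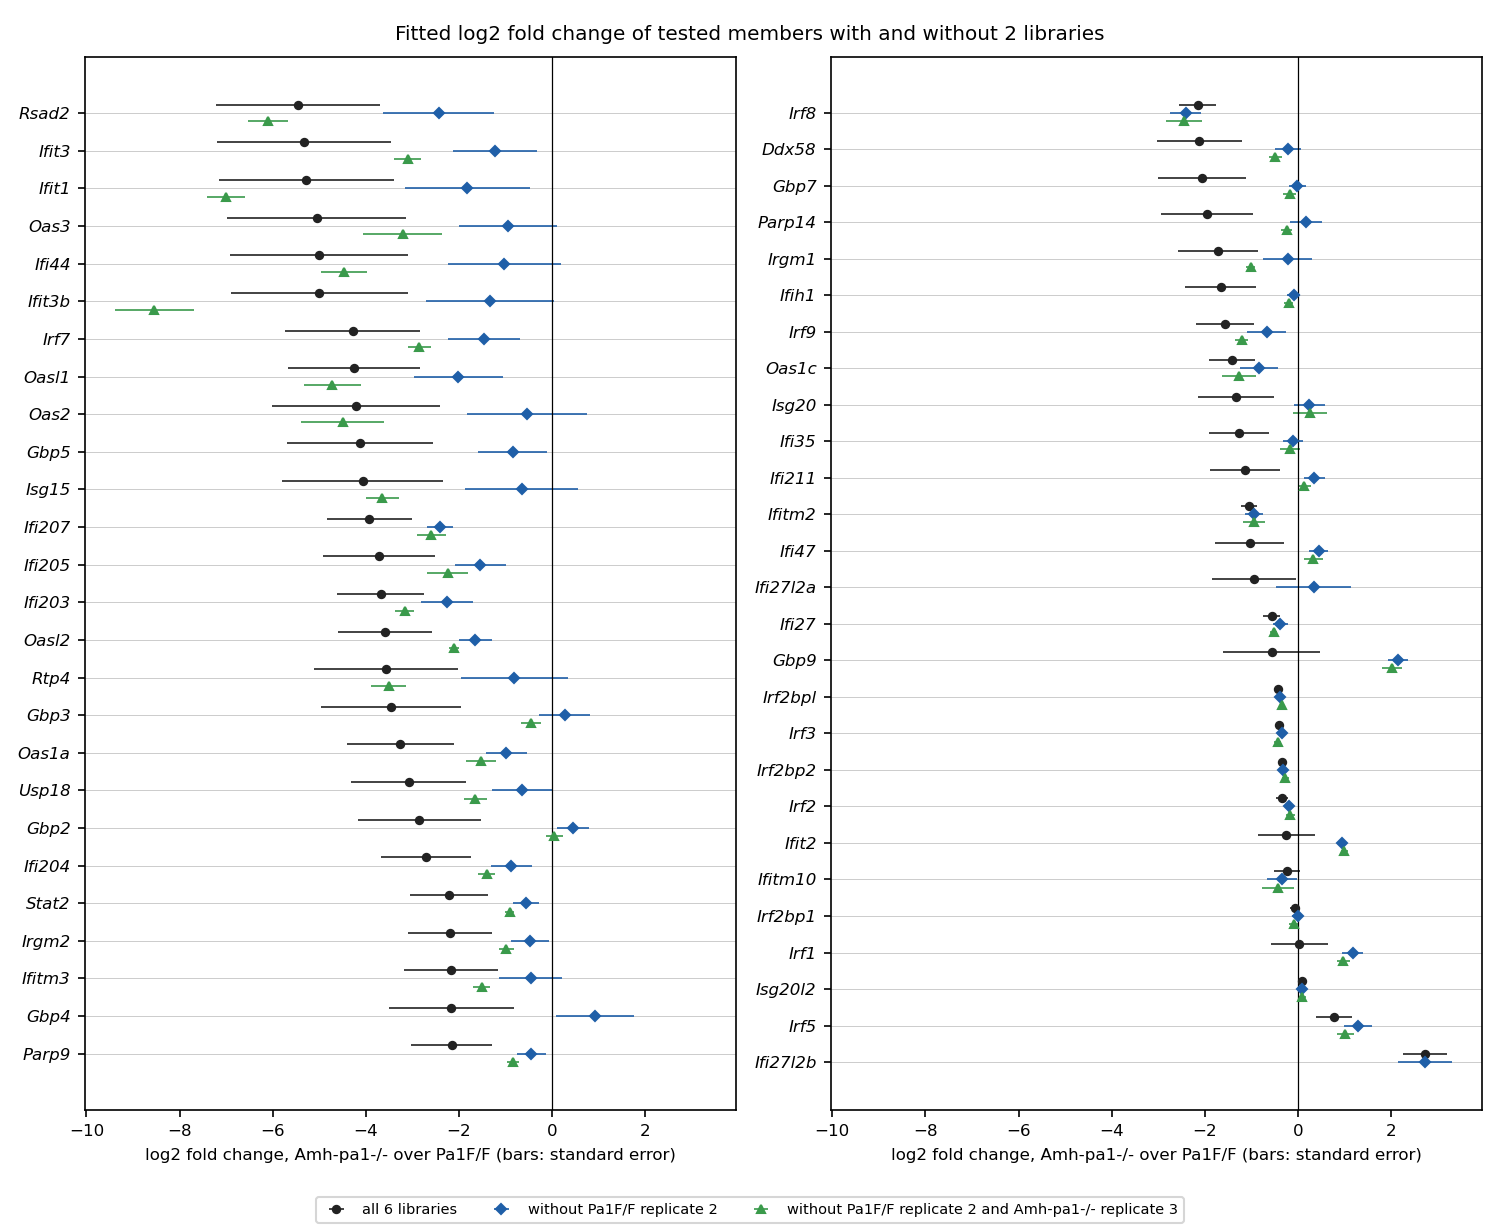
Fitted log2 fold change of *Amh-pa1-/-* over *Pa1F/F* (x axis, bars are standard errors) of 53 tested members (y axis) with all 6 libraries (black), without *Pa1F/F* replicate 2 (blue), and without *Pa1F/F* replicate 2 and *Amh-pa1-/-* replicate 3 (green). The median over all tested members moves from -2.13 to -0.42 without *Pa1F/F* replicate 2, while *Irf8* stands at -2.15, -2.41 and -2.45 and *Ifitm2* at -1.05, -0.95 and -0.94 in the 3 fits. *Ifi27l2b* stands at 2.74 and 2.73 and has no green point, since it was not tested without both libraries.

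The rest of the interferon pathway was read from a list of 112 names that are not members, of which 90 were listed and 77 tested. Of these, 12 were called lower and 0 higher (edgeR), as compared with 6.56% and 5.44% of all tested genes. By the adjusted p-value alone 20 were lower and 3 higher, as compared with 17.1% and 18.2% of all tested genes. Without *Pa1F/F* replicate 2, 7 were called lower and 4 higher, as compared with 5.84% and 5.29%. *Pa1F/F* replicate 2 was at least 2-fold above the other controls for 44 of the 77, as compared with 2.54% of all genes, and *Amh-pa1-/-* replicate 3 was 2-fold above its own genotype for 13, as compared with 4.46%. Among the called genes, *Slfn8* and *Slfn5*, which belong to the Schlafen family, had log2 fold changes of -5.00 and -4.98. *Slfn8* had 11, 160 and 11 counts in *Pa1F/F* and 0, 2 and 3 in *Amh-pa1-/-* libraries, and *Slfn5* had 39, 280 and 28 against 3, 1 and 6. Both passed the filter through *Pa1F/F* libraries alone, as did 4 of the 12 called genes in all, and *Slfn8* was not tested without *Pa1F/F* replicate 2. *Cd274*, which encodes the checkpoint ligand PD-L1, was at -3.55, *Lgals3bp* at -3.20, *Apol9b* at -2.17 and *Ly6e* at -1.95. Without *Pa1F/F* replicate 2 these 4 were at -1.93, -1.55, -1.45 and -1.52, and *Slfn5* was at -3.20. All 5 kept their calls in that fit.

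Genes upstream in the pathway differed by role. Of 21 interferon ligand genes 5 were listed, none was tested, and none had more than 3 counts in a library. *Ifnb1* had 1, 1 and 0 counts in *Pa1F/F* and 0 in each *Amh-pa1-/-* library. No receptor gene was called, and none was 2-fold higher in *Pa1F/F* replicate 2. *Ifnar1*, which encodes a subunit of the type I receptor, had a log2 fold change of -0.17 (edgeR, adjusted p = 0.347). Its partner *Ifnar2* had -0.58 and *Ifnlr1* -0.49, and *Ifngr1* had 0.44, each past the adjusted p-value and short of the fold threshold (edgeR, adjusted p = 0.0209, 0.0313 and 0.0284). *Jak1*, *Jak2* and *Tyk2*, the receptor kinases, had log2 fold changes of 0.28, 0.29 and 0.06 (edgeR, adjusted p = 0.00839, 0.363 and 0.568). Of 9 tested kinases and brakes of the signal, *Socs1* and *Ptpn6*, which both restrain it, were called lower, as compared with 6.56% of all tested genes. Their log2 fold changes were -1.54 and -1.85 (edgeR, adjusted p = 0.0315 and 0.00537). Without *Pa1F/F* replicate 2 they were -1.21 and -1.77 (edgeR, adjusted p = 0.0879 and 0.0193), so that the call of *Socs1* was lost. *Ptpn6* had 14, 16 and 13 counts in *Pa1F/F* and 4, 3 and 4 in *Amh-pa1-/-* libraries and passed the filter through the former alone. Of 12 tested sensors and adaptors that are not members, 2 were called lower, as compared with 6.56% of all tested genes. They were *Tlr7*, an endosomal RNA sensor, and *Ikbke*, a kinase that acts on IRF3, with log2 fold changes of -1.84 and -1.44 (edgeR, adjusted p = 0.00843 and 0.0149). Without *Pa1F/F* replicate 2 they were at -1.72 and -0.99 (edgeR, adjusted p = 0.0278 and 0.0111), so that *Ikbke* missed the fold threshold. *Tlr7*, with 23, 24 and 15 counts against 8, 4 and 4, also passed the filter through *Pa1F/F* libraries alone. *Dhx58*, *Tlr3*, *Mb21d1* and *Ikbke* were 20.3-fold, 3.55-fold, 2.55-fold and 2.08-fold higher in *Pa1F/F* replicate 2 than in the other controls.

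Marker levels of other cells were set beside these values. In *Pa1F/F* replicate 2 the macrophage markers summed to 139 CPM, against 149 and 138 in replicates 1 and 3. Single macrophage markers went both ways in that library. *Adgre1* had 26, 64 and 14 counts in *Pa1F/F* replicates 1, 2 and 3 and *Cd14* had 60, 104 and 44, each at least 2-fold above the other controls as normalized counts, whereas *C1qb* had 32, 7 and 27 and *Lyz2* had 607, 375 and 433. The median fold over the 13 tested markers was 1.02. Of 12 lymphocyte markers 5 were listed, and they summed to at most 1.38 CPM in any library. Germ cell markers summed to 4.81, 4.54 and 6.21 CPM in *Pa1F/F* and to 1.79, 2.91 and 7.36 in *Amh-pa1-/-* replicates 1, 2 and 3. Of the 3 tested, *Ddx4* and *Kit* were called lower, and both passed the filter through *Pa1F/F* libraries alone. Sertoli markers summed to between 17162 and 17474 in *Pa1F/F* libraries, so *Pa1F/F* replicate 2 did not stand apart in them. Leydig cell markers summed to between 794 and 911 and peritubular myoid cell markers to between 214 and 272 in the same libraries. In *Amh-pa1-/-* replicates 1, 2 and 3 Sertoli markers summed to 10457, 10583 and 13295, Leydig cell markers to 165, 172 and 288, and peritubular myoid cell markers to 858, 825 and 1218. *Clu* carried most of the Sertoli sum, and without it the other 13 markers summed to between 4044 and 4274 CPM in *Pa1F/F* and to 3269, 3274 and 3344 in *Amh-pa1-/-* libraries. Of 12 tested Sertoli markers 1, *Inha*, was called lower and 0 higher, as compared with 6.56% and 5.44% of all tested genes. By the adjusted p-value alone 5 were lower and 1 higher, as compared with 17.1% and 18.2% of all tested genes. The 5 had log2 fold changes of -1.23 for *Inha*, -0.88 for *Gata4*, -0.69 for *Clu*, -0.41 for *Nr5a1* and -0.27 for *Aard*, and *Dmrt1* was higher, at 0.64. The other 6 ranged from -0.43 (*Amh*) to 0.13 (*Wt1*). In *Amh-pa1-/-* replicate 3 *Sox9*, *Wt1* and *Dmrt1* were at 0.65-fold, 0.74-fold and 0.74-fold of the mean of replicates 1 and 2, and the median fold of the tested markers was 1.04. *Star* carried most of the Leydig cell sum in *Amh-pa1-/-* libraries, and the other 6 markers summed to 27.4, 29.3 and 31.8 CPM there. *Acta2* carried most of the peritubular myoid sum. Without it the other 4 markers summed to 57.8, 41.0 and 51.8 CPM in *Pa1F/F* and to 20.4, 16.4 and 172 in *Amh-pa1-/-* replicates 1, 2 and 3. *Amh-pa1-/-* replicates 1 and 2 were thus below every *Pa1F/F* library in these markers, and replicate 3 was above. Leaving out these genes was chosen after the values were seen. *Myh11*, *Cnn1* and *Des*, which encode muscle proteins, were 8.44-fold, 14.3-fold and 10.8-fold higher in *Amh-pa1-/-* replicate 3 than in the mean of replicates 1 and 2. *Amh*, a product of immature Sertoli cells, was 7.90-fold higher there. Of 4 tested endothelial markers *Kdr* was 6.28-fold higher in that library, whereas *Pecam1*, *Vwf* and *Cdh5* were at 0.69-fold, 0.78-fold and 1.18-fold. The 18 macrophage markers summed to 93.3, 95.8 and 79.0 CPM in *Amh-pa1-/-* replicates 1, 2 and 3, and without *Mrc1* to 13.01, 13.1 and 15.6. Among them *Lyz2*, *C1qb* and *C1qc* were 2.98-fold, 3.34-fold and 2.34-fold higher in replicate 3, and the median fold over the 13 tested markers was 0.85. The part of these differences in the members' values was not tested.

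**Figure D4:**
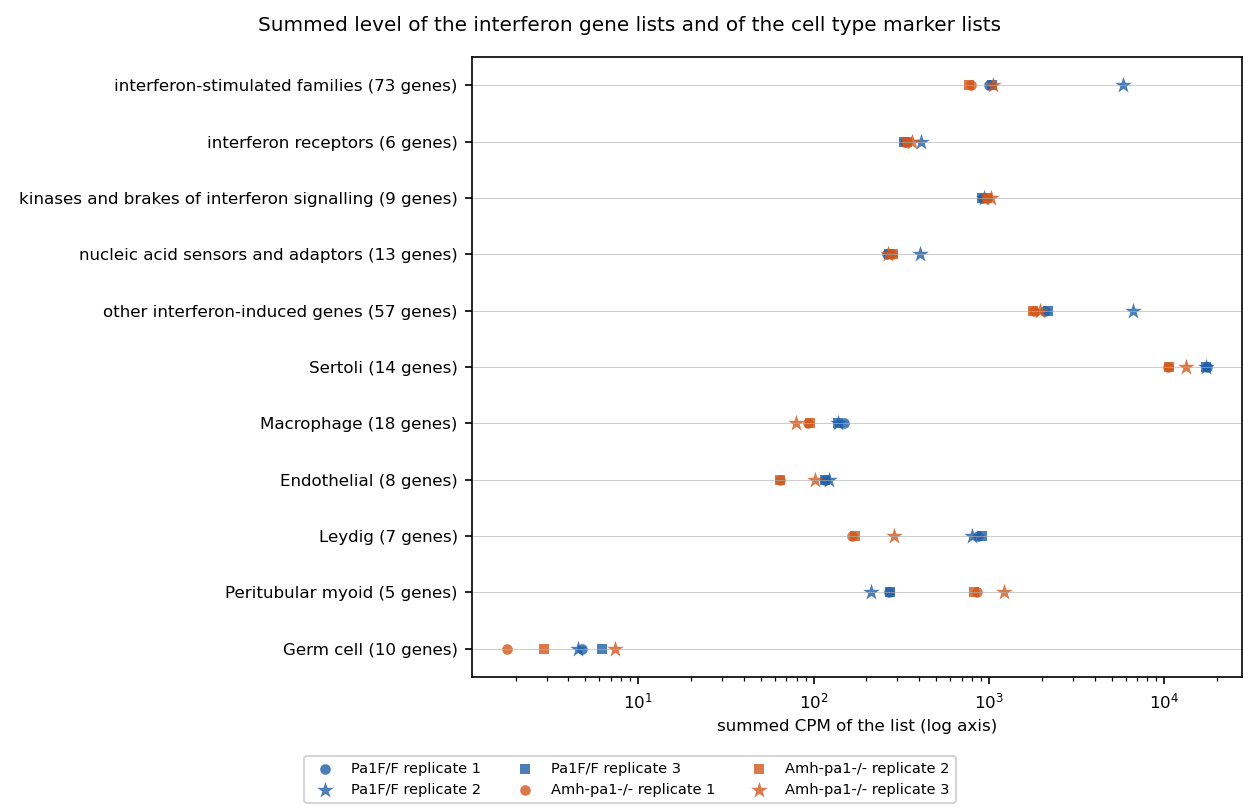
Summed CPM (x axis, log scale) of the 73 members, of the other interferon pathway lists and of the cell type marker lists (y axis) in each of the 6 libraries, with 1 marker per library. The members stand at 5824 in *Pa1F/F* replicate 2 and between 772 and 1051 in the other libraries, while the macrophage list stays between 138 and 149 in the *Pa1F/F* libraries.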

How the data were processed

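Total RNA of 3 *Pa1F/F* and 3 *Amh-pa1-/-* Sertoli cell libraries was sequenced by the authors (Illumina HiSeq). They aligned reads to GRCm38 with HISAT2 2.1.0, counted reads per gene with HTSeq 0.6.0 and the authors deposited the counts without normalization. The strand setting is not given in the sources used here. The table also holds the authors' own comparison, which was not used: the mean normalized signal, the ratio of knockout over control, its log2 value, and the p-value and adjusted p-value, all as deposited.

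Groups and replicate numbers came from the labels. Counts were filtered by edgeR's filterByExpr (minimum count 10, minimum total 15), scaled by TMM and fitted with edgeR 4.0.16 (glmQLFit and glmQLFTest, R 4.3.3) on all 6 libraries without covariates. Benjamini-Hochberg adjustment covered 14919 genes, and calls needed an adjusted p-value under 0.05 and a change of 1 or more on the log2 scale, as in the study's methods. Standard errors were taken from the size of the log2 fold change over the root of F. The study's DEGseq was not run, since it takes no account of the spread between replicates. Alternatives used DESeq2 1.42.0 and limma 3.58.1 (voom). Motif matches and figures were made with Python 3.11.15.

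Depth was between 13203757 and 16231443 counts a library. Reads carry no molecular identifiers, so the interval and the floors take in counting error alone. Named are called members whose mean normalized count reached 20 and a list of members named whatever their call. Also named are interferon receptors and kinases, and the 6 other called pathway genes with the largest change. *Ifi27l2b*, *Gbp9*, *Ifi27l2a*, *Ifi204*, *Ifi205*, *Ifi207*, *Ifi211* and the remaining members were named to account for their families, and the values of some members are not reported here, although counts over the members include them. The families, lists and alternatives were chosen with earlier results of these data known, and the members were then picked by name and biotype. Leaving out *Pa1F/F* replicate 2 and *Amh-pa1-/-* replicate 3 together was added after the data had been seen.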

Additional observations from a re-analysis of the deposited data

How the results depend on the processing

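With 3 libraries a genotype and 1 library that stood apart in each, the call of a member rested on few libraries. The 6 calls among the members became 3 with limma-voom (11.8% of all genes called) and 27 with no filter beyond 1 count (7.36%). With close pairs summed 1 was left (*Ifi27l2b*, 5.53% of all genes). Leaving out *Pa1F/F* replicate 2 and *Amh-pa1-/-* replicate 3 together gave 25 (14.8%). The calls were 0 with edgeR's glmTreat against a log2 fold change of 1 (3.61%). They ranged from 2 (without *Amh-pa1-/-* replicate 1, 10.3% of all genes) through 3 (without *Amh-pa1-/-* replicate 2, 10.4%) to 15 (without *Amh-pa1-/-* replicate 3, 13.5%) with 1 library left out. DESeq2 called 6 (12.0% of all genes), 5 of them as in edgeR and *Oas1c* in place of *Oasl2*, and gave no p-value for 22 of the 54 members and 47 of all genes, and the largest Cook's distance of each of the 22 was in *Pa1F/F* replicate 2. Of the other pathway genes 12 of 77 were called, as compared with 12.0% of all genes. They became 7 of 77 with voom (11.8% of all genes) and 24 of 90 with no filter (7.36%). With at least 10 counts in every library they were 7 of 64 (9.53%), and with pairs summed 1 of 80 (5.53%). Without both libraries they were 19 of 76 (14.8%). With no fold threshold 23 of 77 passed (35.3%), and with glmTreat 0 (3.61%). With 1 library left out they ranged from 3 to 14. The lowest was 3 of 78 without *Amh-pa1-/-* replicate 1 (10.3%), and there were 5 of 78 without replicate 2 (10.4%). Over all genes 1791 calls became 883 with pairs summed, 5266 with no fold threshold and 538 with glmTreat. The members' median log2 fold change of -2.13 lay between -2.58 and -0.42 with 1 library left out, the highest without *Pa1F/F* replicate 2. The cause of these changes was not tested.

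The log2 fold change changed sign for 11 members named here. With 1 library left out it ranged from -3.39 to 0.45 for *Gbp2*, from -4.18 to 0.27 for *Gbp3*, from -3.07 to 0.93 for *Gbp4*, from -1.07 to 2.14 for *Gbp9*, from -1.55 to 0.35 for *Ifi211*, from -1.96 to 0.34 for *Ifi27l2a*, from -1.45 to 0.45 for *Ifi47*, from -0.61 to 0.95 for *Ifit2*, from -0.35 to 1.18 for *Irf1*, from -1.79 to 0.24 for *Isg20* and from -2.43 to 0.18 for *Parp14*. Without both of those libraries it was 0.054 for *Gbp2*, 2.02 for *Gbp9*, 0.13 for *Ifi211*, 0.33 for *Ifi47*, 0.997 for *Ifit2* and 0.25 for *Isg20*. With voom it was 0.75 for *Gbp9* and 0.18 for *Ifit2*, and with pairs summed it was -0.21 for *Irf1*.

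Deviations from the genotype means correlated at 0.10, -0.16 and -0.17 for replicate numbers 1, 2 and 3. The largest value, 0.21, was between *Pa1F/F* replicate 2 and *Amh-pa1-/-* replicate 3, the libraries that stood apart. With so few libraries a genotype, such values cannot settle whether the numbers pair the libraries. With the replicate number as a block, 4 members were called (*Ifi207*, *Ifitm2* and *Irf8* lower, *Ifi27l2b* higher), as compared with 10.4% of all genes, and the log2 fold changes of *Gbp9* and *Ifit2* were 0.68 and 0.19.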

Other observations

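Some genes whose names match the families carry another biotype in the deposited table and were not counted as members. *Mx2*, a partner of *Mx1*, had 50, 597 and 26 counts in *Pa1F/F* replicates 1, 2 and 3, against 3, 4 and 29 in those of *Amh-pa1-/-* cells. *Oas1b* had 39, 330 and 29 against 11, 10 and 29, and *Ifi203-ps* had 10, 134 and 13 against 0, 0 and 3. In these 3 genes *Pa1F/F* replicate 2 was the highest library and *Amh-pa1-/-* replicate 3 the highest of its genotype. *Ifi30*, which encodes a lysosomal thiol reductase used in antigen processing, went another way, with 1124, 1023 and 940 counts against 1968, 1565 and 1371, so that every *Amh-pa1-/-* library was above every *Pa1F/F* library. No test was read for these genes.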
